A study of Mus musculus with 6 samples.

Results

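The mRNAs of 10 chemokine genes (Cxcl1, Cxcl5, Cxcl10, Cxcl12, Cxcl16, Cx3cl1, Ccl2, Ccl5, Ccl7 and Ccl9) were followed in mouse osteoblasts treated with dexamethasone, with or without vesicles of endothelial progenitor cells. The genes were looked up by symbol in a gene table of 21686 genes, and 9 of the 10 were found. Cxcl16 was not analysed here. Cxcl5 was chosen by its measured fall from control to dexamethasone in these libraries, so its levels are given as a description and carry no test. The other 8 genes of the table were listed as chemokines, and 7 of them passed the filter on low counts. Cxcl1 did not pass it.

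RNA of MC3T3-E1 Subclone 14 cells, a cloned line of osteoblast precursors from mouse calvaria, was sequenced in 6 libraries. The control group received 100 µL of PBS, the dexamethasone group 10 µM of dexamethasone, and the dexamethasone + EPC-EVs group 10 µM of dexamethasone with 100 µg of EPC-EVs, each for 72 hours. Each group had 2 libraries, described as biological replicates, and all 3 groups were the same cell line without a transgene named in the labels. EPC-EVs are extracellular vesicles that endothelial progenitor cells from mouse bone marrow release. No library received EPC-EVs without dexamethasone, so an effect of the vesicles alone cannot be told apart from one that needs the glucocorticoid. The design text of the series names fibroblasts and 48 hours in place of osteoblasts and 72 hours, and the sample labels were followed.

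Chemokines are small secreted proteins that draw white blood cells along a gradient by binding receptors with a heptahelical fold on their surface. The families are named for the spacing of the first cysteines of the mature protein, which are adjacent in CC chemokines, separated by a single residue in CXC chemokines and by a trio of residues in CX3C chemokines. CXC chemokines with glutamate, leucine and arginine just before the cysteines (the ELR motif) attract neutrophils through the receptor Cxcr2, whereas most CC chemokines attract monocytes and T cells. Osteoblasts and stromal cells of bone make several of them, among them Cxcl12, which holds blood stem cells in the marrow, and Ccl2, which recruits the monocytes from which osteoclasts form. Many chemokine genes are switched on by NF-kB and by interferon factors, and glucocorticoids such as dexamethasone lower the transcription of many of them.

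The coding sequence around the first cysteines is shown for each member of the table and for Ppbp, a neighbour of Cxcl5, because it holds the feature that sorts them into families. Each stretch is on the strand of the mRNA, 5′ to 3′, with 6 codons before the first cysteine codon and 3 after the last, from GENCODE vM21 on GRCm38. Capitals mark the cysteine codons and, where the ELR motif stands before them, its codons too.
Cxcl1: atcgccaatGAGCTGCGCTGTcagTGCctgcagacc
Cxcl5: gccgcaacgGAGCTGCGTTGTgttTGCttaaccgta
Ppbp: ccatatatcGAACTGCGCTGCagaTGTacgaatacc
Cxcl10: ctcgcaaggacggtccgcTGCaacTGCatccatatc
Cxcl12: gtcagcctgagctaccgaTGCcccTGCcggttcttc
Cx3cl1: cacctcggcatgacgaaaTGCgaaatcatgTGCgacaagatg
Ccl2: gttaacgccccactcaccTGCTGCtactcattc
Ccl7: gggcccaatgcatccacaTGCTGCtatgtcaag
Ccl5: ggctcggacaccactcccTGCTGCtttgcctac
Ccl9: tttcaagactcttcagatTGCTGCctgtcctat
Of the members, Cxcl1 and Cxcl5 carried the ELR codons, as did Ppbp, and Cxcl10 and Cxcl12 were CXC genes without them. The stretch of Cxcl5 lies on chromosome 5 from 90759709 to 90759744 and starts its cysteines at codon 53 of 132 coding codons. Cx3cl1 had 395 coding codons, the longest of the 9, since its chemokine part sits on a mucin stalk and a membrane anchor.

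Several members are neighbours in the genome. Cxcl5 (ENSMUSG00000029371.7) lies on the plus strand of chromosome 5 from 90759360 to 90761624, followed after 6893 bases by Ppbp (90768518 to 90770063) and, after a further 121177 bases, by Cxcl1 (ENSMUSG00000029380.11, 90891241 to 90893115). Cxcl10 (ENSMUSG00000034855.13) lies on the minus strand of chromosome 5 from 92346638 to 92348889. Ccl2 (ENSMUSG00000035385.5, chromosome 11 from 82035571 to 82037453) and Ccl7 (ENSMUSG00000035373.2, 82045712 to 82047525) share the plus strand with 8258 bases between them. Ccl5 (ENSMUSG00000035042.2, chromosome 11 from 83525778 to 83530518) and Ccl9 (ENSMUSG00000019122.8, 83572919 to 83578636) share the minus strand with 42400 bases between them. Cxcl12 (ENSMUSG00000061353.11, chromosome 6 from 117168535 to 117181367) and Cx3cl1 (ENSMUSG00000031778.13, chromosome 8 from 94772009 to 94782427) stand on plus strands with no other member beside them. In GENCODE vM21, Cxcl10 overlaps Art3 and Ccl2 overlaps Gm17268, both on the opposite strand, and the strand setting of the read counting is not given in the sources used here, so the counts of these 2 members are less certain.

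The 4 control and dexamethasone libraries held 5146760 to 6583735 counts on genes, and the 2 dexamethasone + EPC-EVs libraries held 12864009 and 13182014. A count of 0 allows up to 3 counts, which is 0.228 to 0.583 CPM, for counting error only. Levels are given as CPM, read counts scaled to a common library total with TMM normalization, and genes are compared with each other only as FPKM, which also divides by gene length. The dexamethasone + EPC-EVs libraries stood apart from the others in composition: mitochondrially encoded genes took 0.465% and 0.727% of their counts against 5.55% to 8.62% in the other 4 libraries, and the collagen genes Col1a1 and Col1a2 took 2.01% and 1.57% against 0.452% to 0.584%. No label separates a library batch from the group, so these cannot be told apart. The line expressed the osteoblast genes Runx2, Col1a1, Col1a2 and Spp1 in every library, while the markers of mature, mineralising osteoblasts were low, with 0 to 17 counts of Alpl, 2 to 26 of Ibsp, 0 to 83 of Bglap and 6 to 46 of Bglap2. Sp7, a factor of osteoblast commitment, had 6 to 260. Fewer cells of a type and less RNA per cell cannot be told apart in these bulk samples.

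Measured per length, Ccl7, a monocyte attractant, had the highest mean of the members in each group, at 114 FPKM in control, 65.2 FPKM with dexamethasone and 70.9 FPKM when EPC-EVs were added. In control cells it was followed by Cxcl12 at 48.7 FPKM, Cx3cl1 at 41.5, Ccl2 at 33.7, Cxcl5 at 30.2, Cxcl10 at 20.8, Ccl5 at 15.4, Ccl9 at 6.26 and Cxcl1 at 0.311. The libraries of Cx3cl1 and Ccl2, of Ccl2 and Cxcl5, and of Cxcl10 and Ccl5 overlapped, so these neighbours in the order were not separated by the spread of the replicates. The order also rests on the gene lengths behind the FPKM, 801 bases for Ccl7 and 8176 for Cxcl12. In CPM the control mean was 93.0 for Ccl7 and 405 for Cxcl12. In dexamethasone, Cx3cl1 at 64.9 FPKM stood level with Ccl7, and Ccl5 stood at 36.7 FPKM, with libraries that overlapped those of Cxcl12. Cxcl5 stood at 4.94 FPKM, level with Ccl9 at 4.82. In dexamethasone + EPC-EVs the libraries of the leading neighbours Ccl7, Cx3cl1, Ccl2 and Cxcl12 overlapped in turn, Ccl5 followed at 6.28 FPKM, and Cxcl10 and Ccl9 were at 1.92 and 1.16 FPKM with overlapping libraries. The FPKM summed over the 9 members was 309 and 313 in the control libraries, 236 and 257 with dexamethasone, and 128 and 212 in dexamethasone + EPC-EVs. Cxcl5 made up 8.59% and 10.8% of this sum in control, 2.04% and 1.97% with dexamethasone, and 0.0325% and 0% in dexamethasone + EPC-EVs.

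**Figure D1:**
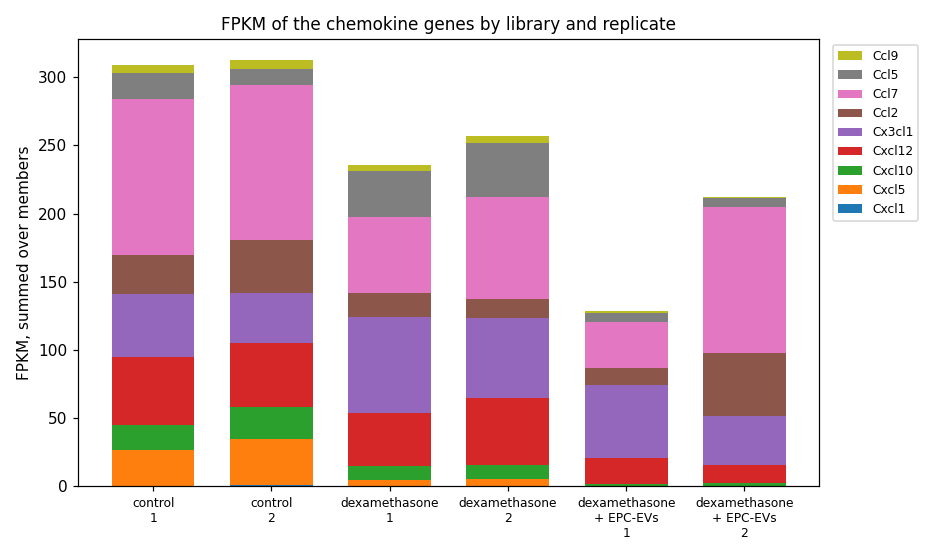
FPKM of the 9 chemokine genes stacked for each of the 6 libraries, with each colour standing for a gene and the y axis starting at 0. The sum was 309 and 313 in control and 128 and 212 in dexamethasone + EPC-EVs, and the 2 libraries of that last group differ mostly in Ccl7 and Ccl2.

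Of the genes that attract neutrophils, Cxcl5 was measured at 49.8 and 64.9 CPM in the control libraries, 8.69 and 9.13 CPM in dexamethasone, and 0.0785 and 0 CPM in dexamethasone + EPC-EVs. The 3 groups did not overlap, and the last was at or below the level that a count of 0 allows. In counts these levels were 303 and 324, 59 and 62, and 1 and 0. The control mean was 57.3 ± 10.7 CPM (SD, n = 2) and the mean with dexamethasone was 8.91 ± 0.315 CPM (SD, n = 2). The fitted difference of -2.69 on the log2 scale is the contrast that selected the gene. Pooled over the libraries of a group, 1 count of 26046023 in dexamethasone + EPC-EVs against 121 of 13158829 in dexamethasone was a 240-fold lower share, with an exact 95% interval of 42.2-fold to 9537-fold. The interval covers counting error only and is no test, since the dexamethasone counts were among those that selected the gene. The control libraries held 627 counts together.

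Cxcl1, the other ELR chemokine of the list, had 6 counts in control replicate 2, 6 in dexamethasone + EPC-EVs replicate 1 and 0 in the other 4 libraries. It was thus at or near the floor in every group, and a difference was not detectable at this depth. Ppbp, the ELR chemokine known from platelets that lies next to Cxcl5, was read at 146 and 63 counts in control, 10 and 22 with dexamethasone, and 0 and 1 in dexamethasone + EPC-EVs. Its levels were 24.0 and 12.6 CPM, then 1.47 and 3.24 CPM, then 0 and 0.0771 CPM, so that its groups also did not overlap. The fitted difference between dexamethasone and control was -2.95 on the log2 scale. Over the pooled counts, 1 against 32 was a 63.3-fold lower share than in dexamethasone (exact 95% interval 10.6-fold to 2579-fold, counting error only). Ppbp was named here because it neighbours Cxcl5, after its values were known, and it could pass the filter on low counts only through the groups where it was high, so its values are a description without a test. Pf4, another platelet chemokine, and Cxcl2, an attractant of neutrophils, each had 1 count in the 6 libraries together.

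**Figure D2:**
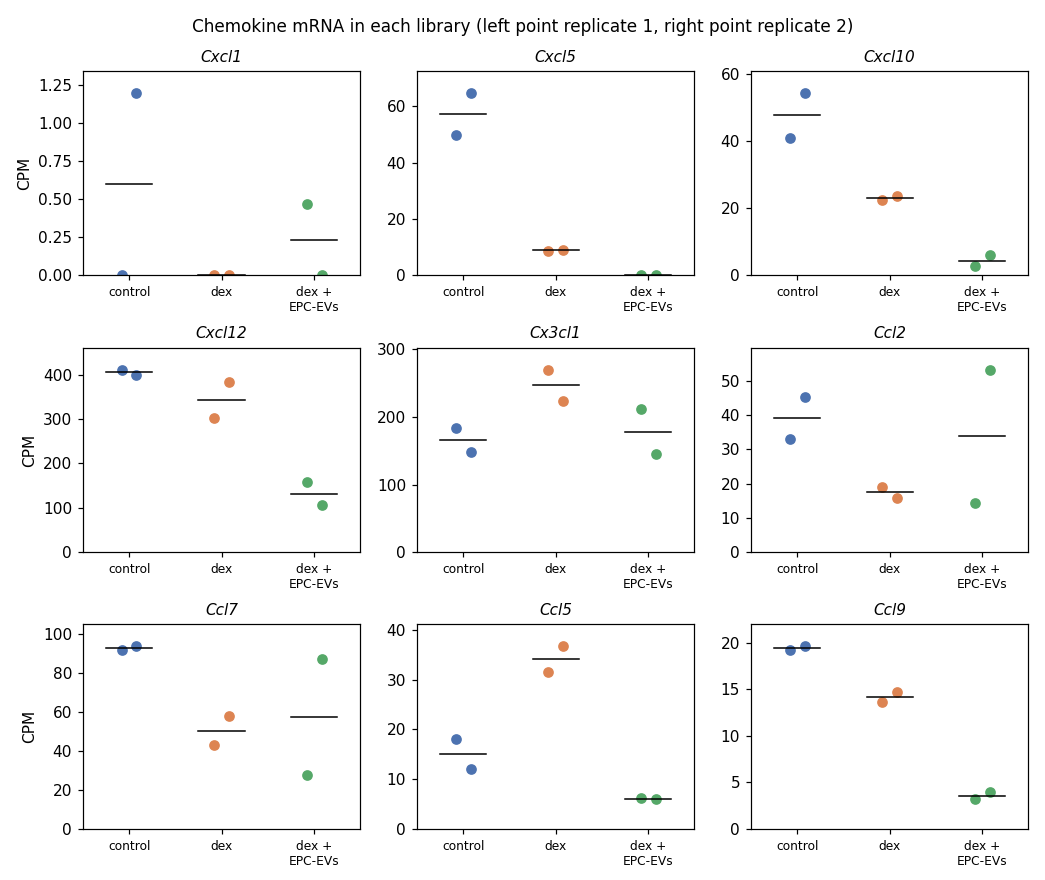
CPM of each chemokine gene in the 6 libraries, with a point for each library, a bar at the group mean and a separate y axis from 0 for each gene. Cxcl5 lies at 49.8 and 64.9, then 8.69 and 9.13, then 0.0785 and 0, Ccl5 is highest in dexamethasone, and the 2 dexamethasone + EPC-EVs points of Ccl2 and Ccl7 lie far apart.

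Between dexamethasone and control, none of the 7 other members tested was called, 0 higher and 0 lower, where a call is an adjusted p under 0.05 in the quasi-likelihood test of edgeR. Over all genes, 0.0155% were called higher and 0.0388% lower. At an unadjusted p under 0.05, 2 members were higher (Cx3cl1 and Ccl5), against 5.61% of all genes, and 3 were lower (Cxcl10, Ccl2 and Ccl7), against 5.33% of all genes. DESeq2 called 1 member, Ccl7, and 2.70% of the genes to which it gave an adjusted p, which it gave to 3 of the 7 members (Cxcl12, Cx3cl1 and Ccl7). Both dexamethasone libraries lay above both control libraries in 2 members and below them in 5, against 22.6% and 21.3% of all genes tested. The median log2 fold change of the 7 was -0.45, beside 0.0071 over all genes tested. Without control replicate 1, the call was made for Cxcl10, Ccl2 and Ccl7 as lower and for Cx3cl1 and Ccl5 as higher (adjusted p from 0.000319 to 0.00203, edgeR), while the calls over all genes went from 2 to 1268 higher and from 5 to 932 lower. With 1 library left in an arm, here and in each such fit given for other members, the spread comes from the pair of the other group alone and the lone library is assumed to vary like it.

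Between dexamethasone + EPC-EVs and dexamethasone, 5 of the 7 were called lower (Cxcl10, Cxcl12, Cx3cl1, Ccl5 and Ccl9) and 0 higher, where 18.9% of all genes were called lower and 20.9% higher. The median log2 fold change of the 7 was -1.40, beside 0.012 over all genes. Against control, 4 of the 7 were called lower (Cxcl10, Cxcl12, Ccl5 and Ccl9) and 0 higher, where 17.2% of all genes were called lower and 19.1% higher. The median was -1.32, beside 0.021 over all genes. These comparisons share libraries with each other and with the contrast that selected Cxcl5, so each is given by its own values only.

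**Figure D3:**
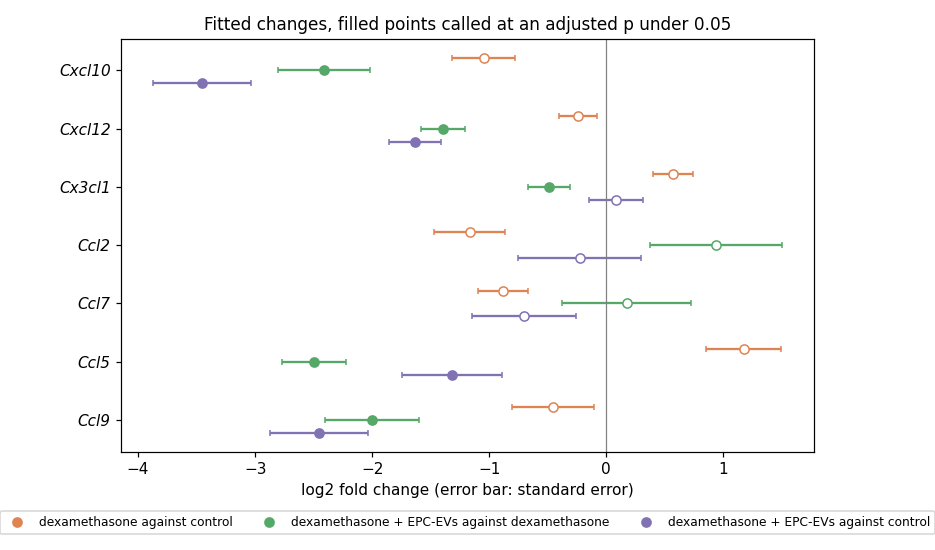
Fitted log2 fold changes of the 7 tested members in the 3 comparisons, with standard errors as bars and filled points where edgeR's adjusted p was under 0.05. Cxcl10, Cxcl12, Ccl5 and Ccl9 lie left of 0 with filled points in both comparisons of dexamethasone + EPC-EVs, and the dexamethasone against control points are all open.

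Cxcl10 attracts T cells through the receptor Cxcr3 and is a standard gene of the interferon response. It was measured at 40.9 and 54.5 CPM in control, 22.5 and 23.7 CPM in dexamethasone, and 2.83 and 5.94 CPM in dexamethasone + EPC-EVs. The 3 groups did not overlap. The difference between dexamethasone and control was -1.05 on the log2 scale (SE 0.268, adjusted p = 0.279, edgeR). With EPC-EVs it fell by 2.41 on the log2 scale against dexamethasone (SE 0.396, adjusted p = 0.000597, edgeR) and fell by 3.46 against control (SE 0.418, adjusted p = 0.000763, edgeR). Without dexamethasone + EPC-EVs replicate 2 these differences were -3.03 and -4.08, and without replicate 1 they were -1.96 and -3.002, all still called.

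Promoter windows from 250 bases before to 50 after the start were found in RefSeq (GRCm38.p6) for Cxcl1, Cxcl10, Cxcl12, Cx3cl1, Ccl9 and Ppbp, and were searched on both strands. The letters GGANTTTCC, a common form of the NF-kB binding site, were in 2 of these 6 windows, those of Cxcl10 and Cxcl1, and in 1.25% of 32851 windows of the same length. The 250 bases before the start are shown for both genes, which differed so widely in their counts, with the matched letters in capitals.
Cxcl10, chr5:92348890-92349139, minus strand: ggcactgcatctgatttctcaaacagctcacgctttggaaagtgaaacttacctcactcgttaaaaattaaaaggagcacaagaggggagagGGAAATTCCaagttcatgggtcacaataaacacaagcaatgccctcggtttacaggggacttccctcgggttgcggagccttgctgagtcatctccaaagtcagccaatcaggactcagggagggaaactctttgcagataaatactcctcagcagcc
Cxcl1, chr5:90890995-90891244, plus strand: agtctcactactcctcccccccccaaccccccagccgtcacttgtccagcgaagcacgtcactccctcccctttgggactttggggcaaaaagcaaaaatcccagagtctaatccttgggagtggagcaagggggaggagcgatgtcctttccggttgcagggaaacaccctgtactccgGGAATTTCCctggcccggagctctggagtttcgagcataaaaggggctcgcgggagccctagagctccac
The match began at base -158 in Cxcl10, on the strand opposite to the gene, and at base -70 in Cxcl1. The letters TATAAA were in 3 of the 6 windows (Cx3cl1, Ccl9 and Ppbp) and in 13.6% of all windows, and in Ccl9 matches on the 2 strands overlapped. The letters ACANNNTGT, the core of a glucocorticoid response element, which reads the same on both strands, were in 1 of the 6 (Cxcl1) and in 6.85% of all windows.

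Cxcl12, the ligand of Cxcr4 that keeps blood stem cells in the marrow, was measured at 411 and 399 CPM in control, 303 and 384 CPM in dexamethasone, and 158 and 106 CPM in dexamethasone + EPC-EVs. The dexamethasone libraries were both below control but 1 of them lay close to it, and the difference of -0.24 on the log2 scale (SE 0.159, adjusted p = 0.605, edgeR) was not called. With EPC-EVs Cxcl12 fell by 1.40 on the log2 scale against dexamethasone (SE 0.188, adjusted p = 0.000164, edgeR) and fell by 1.64 against control (SE 0.222, adjusted p = 0.00117, edgeR).

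Cx3cl1, or fractalkine, is made on the cell membrane and released by the proteases Adam10 and Adam17. It was measured at 184 and 148 CPM in control, 270 and 224 CPM in dexamethasone, and 212 and 145 CPM in dexamethasone + EPC-EVs. Both dexamethasone libraries lay above the other 4, and those of control and dexamethasone + EPC-EVs overlapped. The difference between dexamethasone and control was 0.57 on the log2 scale (SE 0.173, adjusted p = 0.330, edgeR). With EPC-EVs it fell by 0.49 against dexamethasone (SE 0.176, adjusted p = 0.0451, edgeR), and this call was lost without dexamethasone replicate 1 (adjusted p = 0.341), without dexamethasone replicate 2 (0.113) and without dexamethasone + EPC-EVs replicate 2 (0.228). With a trend on GC content and length removed, the fall against dexamethasone was -1.15 (adjusted p = 0.000449, edgeR). Against control the difference was 0.08 (SE 0.229, adjusted p = 0.804, edgeR). With the same trend removed this became -0.94 (adjusted p = 0.00967, edgeR), a called fall.

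The transcripts of the releasing proteases also fell with EPC-EVs. Adam10 was at 209 and 242 CPM in control, 192 and 199 CPM in dexamethasone, and 121 and 118 CPM in dexamethasone + EPC-EVs, a fall of 0.73 on the log2 scale against dexamethasone (SE 0.131, adjusted p = 0.00105, edgeR). Adam17 fell by 0.63 (SE 0.150, adjusted p = 0.00623, edgeR). Neither was called between dexamethasone and control. Dpp4, a protease that trims Cxcl10 and Cxcl12, had 1 count in all 6 libraries.

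Ccl2 and Ccl7 attract monocytes through the receptor Ccr2. Ccl2 was measured at 33.0 and 45.2 CPM in control, 19.0 and 15.9 CPM in dexamethasone, and 14.3 and 53.3 CPM in dexamethasone + EPC-EVs. Ccl7 was measured at 92.2 and 93.9 CPM in control, 43.3 and 57.9 CPM in dexamethasone, and 27.8 and 87.5 CPM in dexamethasone + EPC-EVs. In both genes the dexamethasone libraries lay below control, and in dexamethasone + EPC-EVs replicate 1 was below all dexamethasone libraries while replicate 2 was above them. Ccl2 differed between dexamethasone and control by -1.17 on the log2 scale (SE 0.299, adjusted p = 0.279, edgeR) and Ccl7 by -0.88 (SE 0.216, adjusted p = 0.279, edgeR), neither of them called by edgeR. DESeq2 called Ccl7 in this comparison (adjusted p = 0.0407), and edgeR called it without control replicate 1 (0.00203) and without control replicate 2 (0.0364).

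Both genes differed widely between the dexamethasone + EPC-EVs libraries. The higher library exceeded the lower 3.73-fold in Ccl2 and 3.15-fold in Ccl7, and of 9216 genes compared, 10 and 16 had a larger ratio in that direction (0.109% and 0.174%). The median gene differed 1.15-fold between these 2 libraries in either direction, and the other tested members differed by 1.06-fold (Ccl5) to 2.101-fold (Cxcl10). Against dexamethasone, Ccl2 differed by 0.94 on the log2 scale (SE 0.562, adjusted p = 0.232, edgeR) and Ccl7 by 0.17 (SE 0.553, adjusted p = 0.836, edgeR). Without dexamethasone + EPC-EVs replicate 1, both were called higher (Ccl2 1.61, adjusted p = 7.79e-05, and Ccl7 0.79, adjusted p = 0.00563, edgeR), and without replicate 2 Ccl7 was called lower (-0.87, adjusted p = 0.00935, edgeR) and Ccl2 was at -0.29 (adjusted p = 0.639, edgeR). Against control, Ccl2 differed by -0.23 (SE 0.525, adjusted p = 0.770, edgeR) and Ccl7 by -0.71 (SE 0.443, adjusted p = 0.245, edgeR), and without replicate 2 both were called lower (-1.46, adjusted p = 0.0177, and -1.75, adjusted p = 0.000135, edgeR). Without replicate 1 neither was called against control (Ccl2 0.45, adjusted p = 0.478, and Ccl7 -0.0894, adjusted p = 0.891, edgeR). The direction of Ccl2 in both comparisons, and of Ccl7 against dexamethasone, thus changed with the library left out, and these fits do not hold the spread between the dexamethasone + EPC-EVs libraries. The FPKM ratio of Ccl7 to Ccl2 kept to 2.33 to 5.17 over the 6 libraries.

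**Figure D4:**
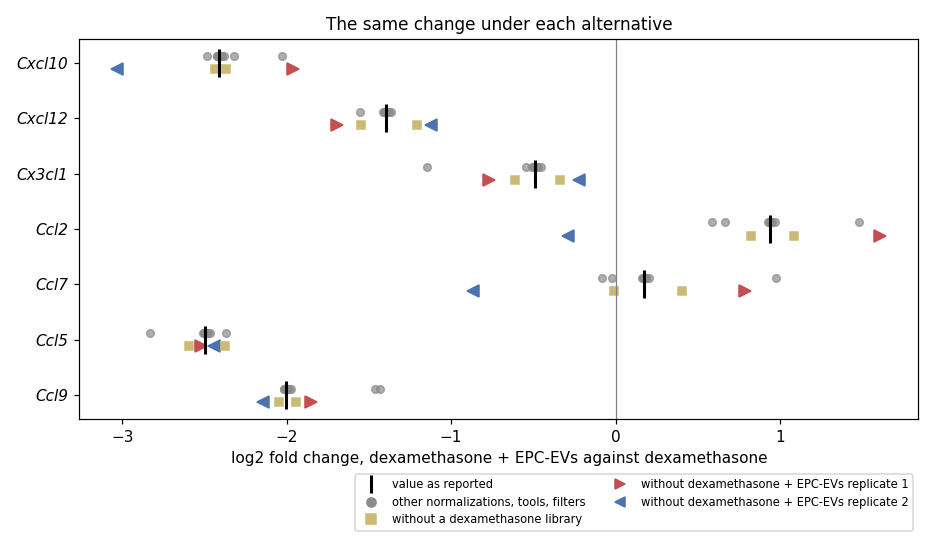
Log2 fold change of dexamethasone + EPC-EVs against dexamethasone for the 7 tested members, as reported (black line), under other normalizations, tools and filters (grey), and without each library in turn (squares and triangles). Ccl2 and Ccl7 change side with the dexamethasone + EPC-EVs replicate left out, from -0.29 to 1.61 and from -0.87 to 0.79, while Cxcl10, Cxcl12, Ccl5 and Ccl9 stay below 0.

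Of the markers of macrophages, cells that also make these monocyte attractants, Csf1r and Cd14 were higher in the same 2 libraries. Against dexamethasone 5 of the list were tested, with 1 called higher (Cd14) and 0 lower, beside 20.9% and 18.9% of all genes. Of 12 macrophage and blood cell markers 8 were in the table, which lacked Ptprc, Itgam, Tyrobp and Cd79a. The summed level of the 8 was 21.2 to 24.8 CPM in control and 21.9 to 27.8 CPM in dexamethasone. It was 44.3 and 87.2 CPM in dexamethasone + EPC-EVs replicates 1 and 2. Csf1r, the receptor for macrophage colony-stimulating factor, had 12 and 0 counts in control, 20 and 8 in dexamethasone, and 56 and 471 in dexamethasone + EPC-EVs. Its ratio of 8.26-fold between those last 2 libraries was exceeded by 1 of the 9216 genes, and its difference from dexamethasone was not called (3.28, SE 1.09, adjusted p = 0.0580, edgeR). Against control Csf1r passed the filter only through dexamethasone + EPC-EVs, where it was high, so its counts there are a description without a test. Csf1r and Cd14 made up 36.3 and 32.8 CPM of the 87.2 CPM in replicate 2. Cd14, a lipopolysaccharide co-receptor, rose with EPC-EVs by 2.44 against dexamethasone (SE 0.394, adjusted p = 0.000537, edgeR) and by 1.65 against control (SE 0.361, adjusted p = 0.00853, edgeR), with 306 and 425 counts in the 2 libraries. Adgre1, the macrophage gene for F4/80, had 1 count in all 6 libraries, and Cd3e, of T cells, had 4. Cd68, a lysosomal protein of macrophages, was at 4.71 and 3.39 CPM in dexamethasone and at 2.83 and 1.62 CPM with EPC-EVs (-0.88, SE 0.680, adjusted p = 0.330, edgeR), while Lyz2 differed by 0.18 (SE 0.349, adjusted p = 0.715, edgeR) and Fcer1g by 0.058 (SE 1.014, adjusted p = 0.970, edgeR). The part of these markers in the levels of Ccl2 and Ccl7 was not tested. Of 10 endothelial markers 8 were in the table. Against dexamethasone 4 were tested, with 1 called lower and 0 higher, beside 18.9% and 20.9% of all genes. The call was for Cd34, the marker of the donor cells of the vesicles that is also made by stromal cells. It fell with EPC-EVs by 0.51 (SE 0.132, adjusted p = 0.00962, edgeR). In dexamethasone + EPC-EVs replicates 1 and 2, Pecam1 had 1 and 21 counts (0 to 7 in the other libraries). Esam had 0 and 14 there (0 to 9 in the others), and Emcn 0 and 6 (0 in the others). Vwf had 8 to 28 counts in each library, Tek at most 8, Prom1 at most 2, and Cdh5 had 1 count in all libraries.

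Ccl5, or RANTES, attracts T cells and monocytes, and was the only CC member whose mean was highest in dexamethasone. It was measured at 18.1 and 12.01 CPM in control, 31.5 and 36.7 CPM in dexamethasone, and 6.28 and 5.94 CPM in dexamethasone + EPC-EVs. The 3 groups did not overlap. The difference between dexamethasone and control was 1.17 on the log2 scale (SE 0.322, adjusted p = 0.291, edgeR), and was called without control replicate 1 (1.51, adjusted p = 0.00160, edgeR). With EPC-EVs it fell by 2.497 on the log2 scale against dexamethasone (SE 0.277, adjusted p = 4.25e-05, edgeR). Against control it fell by 1.32 (SE 0.430, adjusted p = 0.0418, edgeR), a call that was lost without control replicate 1 (adjusted p = 0.115), without either dexamethasone + EPC-EVs library (0.171 and 0.198), with the replicate block (0.0646) and in DESeq2 (0.0583).

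Ccl9, a mouse CC chemokine that binds Ccr1 and is made by osteoclasts and myeloid cells, was measured at 19.2 and 19.6 CPM in control, 13.7 and 14.7 CPM in dexamethasone, and 3.22 and 3.93 CPM in dexamethasone + EPC-EVs. The replicates lay close together and the groups did not overlap. The difference between dexamethasone and control was -0.45 on the log2 scale (SE 0.350, adjusted p = 0.671, edgeR). With EPC-EVs it fell by 2.00 against dexamethasone (SE 0.402, adjusted p = 0.00218, edgeR) and fell by 2.45 against control (SE 0.418, adjusted p = 0.00284, edgeR). The difference from control was -1.69 with a trend on GC content and length removed and -1.75 in limma on log2(FPKM + 1), both still called.

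Of 28 other chemokine ligands listed, 13 were in the table and 7 were tested in the dexamethasone + EPC-EVs against dexamethasone comparison. Of these Ccl3, Ccl28 and Ppbp had at most 3 counts in a dexamethasone + EPC-EVs library and could pass the filter only through dexamethasone, so a call as lower was the only outcome open to them and their counts are given as a description. Cxcl9 and Ccl27a likewise passed through dexamethasone alone and were not called. Of the other 2 tested, Ccl25 fell and Ccl8 was not called. Ccl3, a CC chemokine of myeloid cells, had 20 and 23 counts in control, 10 and 19 in dexamethasone, and 0 in both dexamethasone + EPC-EVs libraries. Ccl25, which guides T cells of gut and thymus, was at 27.6 and 27.0 CPM, then 30.0 and 31.2 CPM, then 15.8 and 19.5 CPM, a fall of 0.81 on the log2 scale (SE 0.244, adjusted p = 0.0203, edgeR). Ccl28, a chemokine of mucosal tissue, had 12 and 37 counts in dexamethasone and 0 to 3 in the other libraries. None of the list was called between dexamethasone and control.

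Few reads fell on the receptors. Of 18 chemokine receptors 7 were in the table and 1 was tested, Cx3cr1, the receptor of fractalkine, which had 17 and 22 counts in control, 20 and 18 in dexamethasone, and 5 and 15 in dexamethasone + EPC-EVs. It was not called between dexamethasone and control (adjusted p = 0.914, edgeR). In the other comparisons it passed the filter only through the group without EPC-EVs, so its counts there are a description. Cxcr4, the receptor of Cxcl12, had at most 13 counts in a library. Of the atypical receptors, which take up chemokines without signalling, Ackr4 rose with EPC-EVs by 1.13 against dexamethasone (SE 0.408, adjusted p = 0.0451, edgeR), with 5.15 and 7.22 CPM in dexamethasone and 17.2 and 10.3 CPM in dexamethasone + EPC-EVs. Its control libraries were at 3.29 and 12.4 CPM, and it was not called against them. Ackr3, which takes up Cxcl12, was not called in any comparison.

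Among genes that switch chemokines on, none was called between dexamethasone and control. In dexamethasone + EPC-EVs against dexamethasone, 3 of 14 NF-kB pathway genes rose (Nfkb1, Nfkb2 and Relb) and 5 fell (Bcl3, Chuk, Nfkbiz, Rel and Tnfaip3), where 20.9% of all genes rose and 18.9% fell, so that the share that rose was near that over all genes. Nfkb2, a subunit of the noncanonical pathway, rose by 1.02 on the log2 scale (SE 0.162, adjusted p = 0.000468, edgeR). Rela, the main activating subunit, was at 0.0048 (SE 0.154, adjusted p = 0.983, edgeR). Against control, 1 rose (Nfkb2) and 4 fell (Bcl3, Chuk, Nfkbiz and Tnfaip3), beside 19.1% and 17.2% of all genes. Of 6 interferon factors, Irf3 and Stat2 rose and Irf1 fell in both comparisons with dexamethasone + EPC-EVs, beside 17.2% to 20.9% of all genes called in a direction. Irf1, an activator of Cxcl10, fell by 1.15 against dexamethasone (SE 0.317, adjusted p = 0.0151, edgeR). It was at 65.1 and 72.0 CPM in dexamethasone, and at 43.9 and 19.0 CPM in dexamethasone + EPC-EVs replicates 1 and 2. Cxcl10 was at 2.83 and 5.94 CPM in those last 2 libraries, and a link between the genes was not tested.

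Of 10 inducing cytokines and receptors tested, Tlr2 rose and Il1r1, Osmr and Tlr3 fell with EPC-EVs against dexamethasone, beside 20.9% and 18.9% of all genes. Il6, which passed the filter only through the group compared with EPC-EVs, was at 18.9 and 11.8 CPM in control, 16.1 and 15.6 CPM in dexamethasone, and 0.785 and 0 CPM in dexamethasone + EPC-EVs. Osmr, the receptor of oncostatin M, fell by 2.24 on the log2 scale (SE 0.154, adjusted p = 1.81e-06, edgeR). Il1r1, the interleukin 1 receptor, fell by 0.84 (SE 0.208, adjusted p = 0.00733, edgeR). Against control, Il17ra, Myd88 and Tnfrsf1a rose and Il1r1 and Osmr fell, beside 19.1% and 17.2% of all genes.

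Of 8 glucocorticoid response genes tested, 0 were called between dexamethasone and control, where 0.0155% of all genes were called higher and 0.0388% lower, and Tsc22d3, a direct target of the glucocorticoid receptor, differed by -0.09 on the log2 scale (SE 0.296, adjusted p = 0.945, edgeR). In dexamethasone + EPC-EVs against dexamethasone, 5 of the 8 rose (Dusp1, Fkbp5, Sgk1, Tsc22d3 and Zfp36), where 20.9% of all genes did. Tsc22d3 was at 36.1 and 24.8 CPM in control, 25.9 and 31.7 CPM in dexamethasone, and 93.5 and 213.6 CPM in dexamethasone + EPC-EVs, a rise of 2.40 (SE 0.389, adjusted p = 0.00275, edgeR). Zfp36, or tristetraprolin, a protein that destabilises the mRNAs of many cytokines and chemokines, rose by 1.93 (SE 0.197, adjusted p = 2.44e-05, edgeR), from 25.9 and 33.0 CPM to 101 and 126 CPM. Against control, Dusp1, Fkbp5, Tsc22d3 and Zfp36 rose, and Nr3c1, the receptor itself, fell by 0.62 (SE 0.208, adjusted p = 0.0455, edgeR), where 19.1% of all genes rose and 17.2% fell. Of 10 osteoblast markers tested, Col1a1, Col1a2, Pdgfrb and Sparc rose and Spp1 fell with EPC-EVs against dexamethasone, beside the same 20.9% and 18.9% of all genes.

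The genes most like Cxcl5 over the 6 libraries were Ankrd26, Nasp, 4921524J17Rik, Hnrnpa1 and Zfp770, with Pearson's r of their log2 CPM from 0.9976 (Zfp770) to 0.9985 (Ankrd26) among the 9218 genes that averaged 10 CPM or more. The 6 points share their libraries and the composition of each group, and r is given as a description. The likeness was in the order of the groups and their relative spacing on the log2 scale, not in the size of the differences. Ankrd26 was at 98.9 and 100.1 CPM in control, 69.7 and 66.3 CPM in dexamethasone, and 30.7 and 29.9 CPM in dexamethasone + EPC-EVs. Nasp, a histone chaperone, was at 93.3 and 99.5 CPM, then 66.9 and 67.9 CPM, then 32.2 and 28.0 CPM. None of the 5 was another chemokine, but Ppbp, which averaged less than 10 CPM, was not among the genes compared.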

How the data were processed

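Gene expression of MC3T3-E1 Subclone 14 cells was read from 6 libraries, 2 for each of 3 groups. The authors aligned the reads with HISAT2 and counted them on genes of GRCm38 with HTSeq 0.6.1 (the submitters' processing notes also list DESeq2 1.26.0), and the counts were deposited without normalization. The deposited FPKM values are these counts divided by gene length and library total. Transcript values were not used.

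The counts were fitted in R 4.3.3 with edgeR 4.0.16 (TMM, filterByExpr, robust quasi-likelihood test) on the 4 libraries of each comparison. Benjamini-Hochberg adjustment ran over every gene of the fit, with calls under 0.05. An SE is the log2 fold change divided by the square root of F. CPM used TMM over the 6 libraries. Cxcl5 was kept out of the tests.

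The members, gene lists, motifs and tests were chosen with earlier results of these data known. Named were all members, called list genes that averaged 1 CPM or more, and the 5 genes most correlated with Cxcl5. Other genes, such as receptors, cell markers and list genes not called, were named after their values were seen. Replicates differed by more than sampling noise (chi-square per degree of freedom 7.17 to 20.1). Coordinates are those of GENCODE vM21, in which 21646 of 21686 genes were found. Alternatives used DESeq2 1.42.0, limma 3.58.1 on log2(FPKM + 1), other filters and scalings, the replicate block and each library left out. Total counts per library are given with the results, and 2 libraries a group limit the precision.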

Additional observations from a re-analysis of the deposited data

How the results depend on the processing

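For dexamethasone against control, 0 members were called higher, and 0 to 2 with 1 library left out. The count lower was 0, with 1 in DESeq2 (Ccl7, among 89 genes), 3 without a filter on low counts (Cxcl10, Ccl2 and Ccl7, among 129 genes), and 0 to 3 with 1 library left out, the 3 without control replicate 1. For dexamethasone + EPC-EVs against dexamethasone, the count higher was 0, with 1 without a filter (Ccl2, where 3138 genes were called higher against 2832 with it) and 0 to 2 with 1 library left out. The count lower was 5, with 3 under the study's thresholds, a log2 fold change beyond 1.5 and an unadjusted p under 0.05 (Cxcl10, Ccl5 and Ccl9, where the genes called lower in all went from 2565 to 966), and 4 to 5 with 1 library left out. Against control the counts were 0 higher and 4 lower, and 0 and 3 to 5 with 1 library left out.

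Signs turned in 3 members, all in comparisons with dexamethasone + EPC-EVs. Against dexamethasone, the log2 fold change of Ccl7 went from 0.17 to -0.0212 with the replicate block and to -0.0816 in limma on log2(FPKM + 1), was 0.97 with a trend on GC content and length removed, and ranged from -0.87 to 0.79 with 1 library left out, as Ccl2 did from -0.29 to 1.61. It was -0.0112 for Ccl7 without dexamethasone replicate 1. Against control, removing a trend on GC content and length gave -0.94 for Cx3cl1, 0.48 for Ccl2 and 0.34 for Ccl7, and leaving out 1 library gave -0.20 to 0.34 for Cx3cl1 (-0.0391 without control replicate 2) and -1.46 to 0.45 for Ccl2 (0.0373 without control replicate 2). The causes were not tested.

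Cx3cl1 lost its call against dexamethasone in 7 of 15 alternatives, among them all 6 libraries in one fit (adjusted p = 0.105), limma (0.0883) and, chosen after seeing the data, Col1a1 and Col1a2 left out (0.0524). Ccl5 lost its call against control in 6 of 15. Cxcl10, Ccl5 and Ccl9 kept their call against dexamethasone in all 15, and Cxcl12 in 14. The fitted difference of Cxcl5 between dexamethasone and control ranged from -2.86 to -2.38.

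The replicate numbers were not taken as pairs, since same-numbered libraries deviated together only weakly (r = 0.0619, 0.0114 and 0.00732). With the replicate number as a block, the genes called in all went from 7 to 43, from 5397 to 5366 and from 4916 to 4679 in the 3 comparisons, and the members called lower were 0, 5 and 3, with 0 higher in each. At 2 libraries a group, p-values rest on the spread between these few samples.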
